A study of Mus musculus with 14 samples.

Results

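The genes described here are 30 markers of cortical interneurons, the inhibitory neurons of the cerebral cortex. They were chosen by symbol from the 32830 genes in the table of a mouse cortex RNA-seq study, and all 30 were found there. They comprise 3 genes of GABA synthesis and vesicular loading (Gad1, Gad2, Slc32a1), 13 lineage transcription factors (Lhx6, Dlx1, Dlx2, Dlx5, Dlx6, Nkx2-1, Sox6, Maf, Satb1, Prox1, Sp8, Sp9, Nr2f2), 7 neuropeptide genes (Sst, Vip, Npy, Cck, Tac1, Cort, Crh) and 7 other subtype markers (Pvalb, Calb2, Nos1, Htr3a, Ndnf, Adarb2, Chodl).

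The study took upper and deep cortical layers by hand dissection from SW mice aged 14 days that carried Aldh1l1-GFP, a transgene in which green fluorescent protein marks astrocytes under control of the Aldh1l1 gene. After papain digestion, live cells were sorted into GFP-positive cells (astrocytes) and GFP-negative cells (non-astrocytes), while whole dissected layers gave bulk tissue. There were 3 libraries of upper and 3 of deep layer astrocytes, 2 of upper and 2 of deep layer non-astrocytes, and 2 of upper and 2 of deep layer bulk tissue. The labels do not say that libraries of a group came from separate mice, so p-values measure only how far these samples spread, and that spread may be technical. They also do not say whether the bulk tissue came from mice with the transgene or how many mice went into a library.

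The 14 libraries held 18226457 to 30316765 recovered reads in genes. A pair of libraries stood apart. Upper layer non-astrocytes replicate 1 had 30333 genes with a read, against 23671 to 26356 in the other 13, and deep layer astrocytes replicate 2 correlated at 0.956 and 0.957 on the log2 scale with the other libraries of its group, which correlated at 0.979 with each other. Values are normalised read counts, that is, reads divided by 1 size factor per library, and differences are given as log2(value + 1), a scale that shrinks the change of low genes. Genes with an adjusted p below 0.05 in limma are referred to as called. Without upper layer non-astrocytes replicate 1, calls between astrocytes and non-astrocytes were gained for Gad2, Dlx6 and Sst and lost for Sox6, Npy and Chodl. Without deep layer astrocytes replicate 2, calls between these fractions were gained for Sst and lost for Dlx5 and Sox6, and Prox1 was called between layers of astrocytes. As a check of the sorted fractions, all 10 astrocyte marker genes tested were called higher in astrocytes than in bulk tissue and all 10 were called lower in non-astrocytes than in bulk tissue. All 15 pan-neuronal markers tested were called lower than in bulk tissue in both sorted fractions. The summed level of these markers was 8721 to 14110.0 in the 6 astrocyte libraries, 11110.0 to 15830.0 in the 4 non-astrocyte libraries and 211900.0 to 275900.0 in the 4 bulk libraries, and none of the 15 was at 0 throughout a fraction. In non-astrocytes the median marker of microglia stood at 1890.0% of its bulk level, of mural cells (pericytes and smooth muscle) at 2270.0%, of fibroblasts at 1260.0%, of endothelial cells at 702% and of oligodendrocyte precursors at 594%, against 4.72% for the median pan-neuronal marker.

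Cortical interneurons release GABA, which is made from glutamate by 2 decarboxylases and packed into synaptic vesicles by a transporter. In rodents they are born mainly in the medial and caudal ganglionic eminences of the ventral forebrain and migrate into the cortex. Transcription factors laid down at birth, such as Lhx6 in the medial and Prox1 in the caudal lineage, persist and help to set the subtype, which is read out by calcium-binding proteins and neuropeptides. Parvalbumin and somatostatin cells come from the medial eminence, while cells with vasoactive intestinal peptide, and most cells with the serotonin receptor Htr3a, come from the caudal eminence and are known to favour upper layers.

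Promoters are shown for the 4 peptide genes with the highest level per kb of exon in bulk tissue, because the peptides had the lowest median difference between sorted cells and bulk tissue of the 4 groups of genes and because the cyclic AMP response element (CRE) was first described in the somatostatin promoter. RefSeq promoters (GRCm38.p6, 250 bases before to 50 after each start) were matched for 23 of the 30 genes, with 38 promoters in all. Both strands were searched for the 8-letter element TGACGTCA and for its 5-letter core TGACG, which lies within it. Capitals mark every match, and all 4 sequences are written 5′ to 3′ along the gene. They lie at chr16:23890795-23891094 on the minus strand (Sst), chr10:5638968-5639267 on the plus strand (Vip), chr9:121495645-121495944 on the minus strand (Cck) and chr6:49822460-49822759 on the plus strand (Npy).
Sst: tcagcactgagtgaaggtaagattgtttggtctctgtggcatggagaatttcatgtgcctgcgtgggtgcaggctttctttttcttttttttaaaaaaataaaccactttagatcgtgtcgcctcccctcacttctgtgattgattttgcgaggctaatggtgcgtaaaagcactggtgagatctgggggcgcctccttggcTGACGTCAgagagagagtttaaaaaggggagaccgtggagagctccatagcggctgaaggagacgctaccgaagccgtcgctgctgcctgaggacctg
Vip: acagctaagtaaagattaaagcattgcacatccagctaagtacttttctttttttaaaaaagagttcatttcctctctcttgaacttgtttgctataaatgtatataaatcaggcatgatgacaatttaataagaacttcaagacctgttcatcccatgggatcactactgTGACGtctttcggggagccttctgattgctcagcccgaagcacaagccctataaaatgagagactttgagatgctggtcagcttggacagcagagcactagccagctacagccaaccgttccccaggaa
Cck: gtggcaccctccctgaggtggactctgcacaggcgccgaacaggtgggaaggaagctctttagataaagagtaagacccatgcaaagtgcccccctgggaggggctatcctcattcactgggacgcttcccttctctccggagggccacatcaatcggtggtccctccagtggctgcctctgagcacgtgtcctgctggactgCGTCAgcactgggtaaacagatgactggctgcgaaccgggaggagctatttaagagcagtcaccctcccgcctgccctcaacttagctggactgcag
Npy: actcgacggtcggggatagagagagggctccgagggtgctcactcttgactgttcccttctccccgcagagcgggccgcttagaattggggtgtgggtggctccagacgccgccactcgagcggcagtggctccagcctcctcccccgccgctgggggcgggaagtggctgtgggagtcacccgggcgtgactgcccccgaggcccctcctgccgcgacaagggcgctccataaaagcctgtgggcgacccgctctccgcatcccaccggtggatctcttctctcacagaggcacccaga
The 8-letter element stood in 1 of the 38 promoters, that of Sst, where it began 48 bases before the start, and in 1.79% of all 32851 promoters in the table. The 5-letter core stood in 10 of the 38 promoters (26.3%), against 20.8% of all promoters. Among the 4 promoters shown it began 79 bases before the start in Vip and 47 bases before the start in Cck, and these letters were absent from this window of Npy. The other genes with the core were Cort, Tac1, Gad2, Dlx2, Nkx2-1, Nos1 and Sox6. These matches describe letters only and were not tested against the expression values.

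Most interneuron genes were far lower in both sorted fractions than in bulk tissue, and 5 of them were higher in non-astrocytes. For non-astrocytes against bulk tissue, 24 of the 30 genes were called lower, 5 were called higher and Chodl was not called. Over all 22575 genes tested, 31.1% were called lower and 30.5% higher. For astrocytes against bulk tissue, 27 genes were called lower, Sox6 was called higher, and Sp8 and Calb2 were not called, where 36.1% of all genes were called lower and 28.8% higher. The median log2 difference of the 30 genes was -2.87 for non-astrocytes and -3.25 for astrocytes, against -0.04 and -0.10 over all genes tested. The 2 comparisons use the same bulk libraries. Between the sorted fractions, astrocytes were called lower than non-astrocytes for 14 genes, higher for 4 (Sox6, Sp8, Calb2, Nos1) and not called for 12, where 36.8% of all genes were called lower and 29.6% higher. Each of the 4 higher calls was lost in some other settings, in 12 of 23 for Sp8 and, of 24 each, in 8 for Sox6, 3 for Calb2 and 3 for Nos1. With the replicate number as a block, the calls of Sp8 (adjusted p = 0.205) and Calb2 (0.062) were lost. All 30 genes passed the filter on low values, a value of at least 10 in at least 2 libraries, but 8 of them (Slc32a1, Dlx2, Dlx5, Sp8, Sp9, Cort, Crh, Htr3a) passed it through bulk libraries alone, so that a lower value in sorted cells was built into their selection. Of the other 22, 16 were called lower and 5 higher in non-astrocytes, and 20 were called lower and 1 higher in astrocytes. In bulk tissue, fewer cells of a type and less RNA per cell cannot be told apart.

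**Figure D1:**
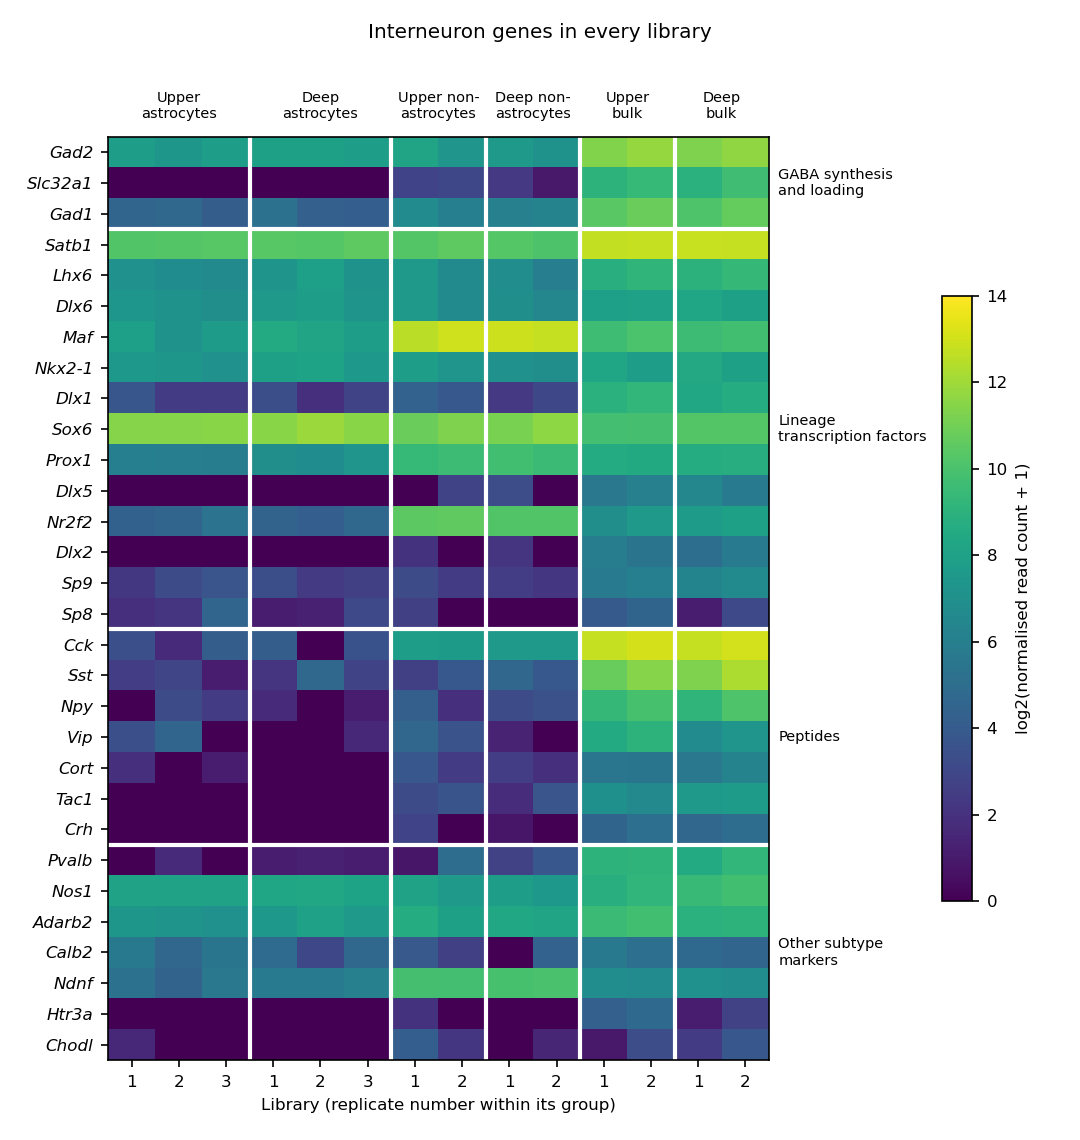
Level of each of the 30 genes, as log2(normalised read count + 1), in each of the 14 libraries, which are ordered by group from left to right, with genes ordered within each role by bulk level per kb. The 7 peptides and Slc32a1 are dark in all 6 astrocyte libraries, Maf, Nr2f2 and Ndnf are brightest in the 4 non-astrocyte libraries, and Sox6 is brighter in both sorted fractions than in bulk tissue.

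The GABA synthesis and loading genes were lower in both sorted fractions, and all 3 were called, though Slc32a1 passed the filter on low values through bulk libraries alone. Gad1 encodes GAD67, the decarboxylase that makes most of the cell's GABA (chr2:70553072-70602014, plus strand, GRCm38 here and below). Its normalised read count was 22.9, 25.1 and 16.5 in upper and 37.8, 18.4 and 16.9 in deep layer astrocytes, 107 and 63.7 in upper and 66.4 and 74.6 in deep layer non-astrocytes, and 1367 and 1811 in upper and 1114 and 1675 in deep layer bulk tissue. The 3 fractions did not overlap, and astrocytes were the lowest. It differed from bulk tissue, on the log2 scale, by -6.00 (SE 0.25, adjusted p = 1.66e-11) in astrocytes and by -4.25 (SE 0.28, adjusted p = 4.27e-09) in non-astrocytes, and astrocytes were also called lower than non-astrocytes, by -1.75 (SE 0.25, adjusted p = 1.94e-05).

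Gad2 encodes GAD65, the decarboxylase found at nerve endings (chr2:22622205-22693874, plus strand). Its count was 219.6, 171 and 217 in upper and 249, 251 and 219.9 in deep layer astrocytes, 286 and 156 in upper and 185 and 142 in deep layer non-astrocytes, and 2595 and 3498 in upper and 2471 and 3327 in deep layer bulk tissue. Unlike Gad1, its libraries of the 2 sorted fractions overlapped. Against bulk tissue, the log2 difference was -3.74 (SE 0.18, adjusted p = 6.52e-11) in astrocytes and -3.98 (SE 0.20, adjusted p = 2.08e-10) in non-astrocytes. Between astrocytes and non-astrocytes it was 0.25 (95% interval -0.13 to 0.63, adjusted p = 0.234) and was not called, but without upper layer non-astrocytes replicate 1 it was called (0.46, adjusted p = 0.0254). In astrocytes Gad2 stood at 7.44% of its bulk level and Gad1 at 1.54%. Whether these 2 shares differ was not tested.

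Slc32a1 encodes the vesicular GABA transporter VGAT (chr2:158610767-158615748, plus strand), and 697 of its exonic bases are shared with Gm14205. It was at 0 in all 6 astrocyte libraries. It had 6.14 and 7.18 in upper and 4.05 and 0.909 in deep layer non-astrocytes, and 529 and 654 in upper and 497 and 843 in deep layer bulk tissue. Against a floor of 3 reads over the 6 astrocyte libraries, Slc32a1 was at least 1130.0-fold lower in astrocytes than in bulk tissue. Such bounds, here and below, use the bulk mean over both layers. In non-astrocytes the log2 difference from bulk tissue was -6.99 (SE 0.40, adjusted p = 8.72e-10).

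The 13 lineage transcription factors moved in both directions. In non-astrocytes 9 were called lower and 4 higher than in bulk tissue, against 31.1% and 30.5% of all genes, with a median log2 difference of -2.29. The 4 higher calls are a share near that of all genes. In astrocytes 11 were called lower, 1 was called higher and Sp8 was not called, against 36.1% lower and 28.8% higher of all genes, with a median of -2.11. Dlx2, Dlx5, Sp8 and Sp9 passed the filter on low values through bulk libraries alone, so a lower value in sorted cells was built into their selection. All of them are among the 9 lower calls in non-astrocytes, and all but Sp8 are among the 11 in astrocytes.

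The 4 Dlx genes, homeobox factors switched on in nearly all GABA neuron precursors, split by gene. Dlx1 (chr2:71528113-71533981, plus strand), 335 bases of which lie in exons of Dlx1as, had 2.84 to 12.4 in astrocytes, 4.05 to 20.0 in non-astrocytes and 335 to 627 in bulk tissue. Its log2 difference from bulk tissue was -6.01 (SE 0.36, adjusted p = 9.05e-10) in astrocytes and -5.41 (SE 0.40, adjusted p = 1.47e-08) in non-astrocytes. Dlx2 was at 0 in all 6 astrocyte libraries, at 0 to 3.24 in non-astrocytes and at 32.9 to 60.8 in bulk tissue, which makes it at least 83.1-fold lower in astrocytes than in bulk tissue. Dlx5 was at 0 in all 6 astrocyte libraries, at 0 to 8.9 in non-astrocytes and at 47.9 to 86.9 in bulk tissue, at least 115-fold lower in astrocytes. Its call in non-astrocytes was lost with DESeq2 (adjusted p = 0.102).

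Dlx6 (chr6:6863334-6868568, plus strand), 104 exonic bases of which are shared with Dlx6os2, stood apart from the other 3. Its count was 165, 145 and 118 in upper and 179, 221 and 152 in deep layer astrocytes, 193 and 104 in upper and 123 and 88.2 in deep layer non-astrocytes, and 236 and 253 in upper and 304 and 248 in deep layer bulk tissue. The sorted libraries were below every bulk library, but by little. Against bulk tissue it differed by -0.69 (SE 0.20, adjusted p = 0.00758) in astrocytes, lost when values were scaled to library totals (adjusted p = 0.0756), and -1.09 (SE 0.22, adjusted p = 0.000551) in non-astrocytes. Dlx6 stood at 62.8% of its bulk level in astrocytes, where the 3 other Dlx genes stood at 1.44% or at 0.

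Lhx6 and Nkx2-1, factors of the medial eminence lineage, also stood nearer to bulk tissue than Dlx1, Dlx2 and Dlx5. In astrocytes they stood at 26.8% and 70.6% of their bulk level, against 0.523% for the median pan-neuronal marker. Whether these reads came from interneurons was not tested. In upper layer non-astrocytes, both genes were higher in replicate 1, the library with 30333 genes with a read. Lhx6 (chr2:36081953-36105408, minus strand), which keeps medial lineage cells on their path into the cortex, had 137, 109 and 99.2 in upper and 149, 235 and 137 in deep layer astrocytes, 184 and 101 in upper and 117 and 63.7 in deep layer non-astrocytes, and 442 and 562 in upper and 519 and 630.1 in deep layer bulk tissue. All sorted libraries were below all bulk libraries, with a log2 difference of -1.94 (SE 0.23, adjusted p = 2.54e-06) in astrocytes and -2.29 (SE 0.25, adjusted p = 1.44e-06) in non-astrocytes. It shares 104 exonic bases with Gm27953. Nkx2-1, which acts upstream of Lhx6 in the eminence, ran over 132 to 282 in astrocytes, 120.0 to 220.3 in non-astrocytes and 218 to 349 in bulk tissue, and both sorted fractions overlapped bulk tissue. Its call in astrocytes, -0.52 (SE 0.19, adjusted p = 0.0259), was lost in 6 of 24 other settings, among them without upper layer bulk replicate 1 (adjusted p = 0.13), deep layer bulk replicate 1 (0.136), upper layer astrocytes replicate 3 (0.0609) or deep layer astrocytes replicate 3 (0.0619). Its call in non-astrocytes, -0.84 (SE 0.21, adjusted p = 0.00269), was lost when values were scaled to library totals (adjusted p = 0.0952).

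Satb1, a chromatin organiser needed for the maturation of somatostatin cells, had the highest level per kb of exon among the 13 in bulk tissue (chr17:51736187-51833290, minus strand). It had 1154, 1201 and 1296 in upper and 1303, 1289 and 1494 in deep layer astrocytes, 1205 and 1478 in upper and 1250.3 and 1092 in deep layer non-astrocytes, and 6611 and 6969.6 in upper and 7197 and 7077 in deep layer bulk tissue. The 2 sorted fractions overlapped, and both were below all bulk libraries, with a log2 difference of -2.44 (SE 0.11, adjusted p = 2.11e-11) in astrocytes and -2.48 (SE 0.12, adjusted p = 1.24e-10) in non-astrocytes. It shares 156 exonic bases with Gm36931 and 128 with Gm6934. Sp8 and Sp9 are zinc finger factors of the eminences. Sp9, which shares 270 exonic bases with Cir1, ran over 3.82 to 12.1 in astrocytes, 3.64 to 8.45 in non-astrocytes and 53.5 to 103 in bulk tissue and was called lower in both sorted fractions. Sp8 was low throughout, at 1.18 to 23.1 in astrocytes, 0 to 5.37 in non-astrocytes and 1.17 to 22.0 in bulk tissue. Its difference of -0.82 (95% interval -2.30 to 0.66, adjusted p = 0.313) between astrocytes and bulk tissue was not called, but with the replicate block it was called (-1.56, adjusted p = 0.0452). Its lower call in non-astrocytes was lost without upper layer non-astrocytes replicate 2 (adjusted p = 0.0586) or deep layer bulk replicate 2 (0.0531).

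The other 4 transcription factors were higher in non-astrocytes than in bulk tissue. Sox6, which acts after Lhx6 in medial lineage interneurons and is also known in oligodendrocyte precursors, was higher in both sorted fractions (chr7:115470872-116038796, minus strand). Its count was 2841, 2844 and 2902 in upper and 2903, 3837 and 2957 in deep layer astrocytes, 1797 and 2523 in upper and 2339.5 and 3159 in deep layer non-astrocytes, and 893 and 927 in upper and 1225 and 1235 in deep layer bulk tissue. Every sorted library exceeded every bulk library, by a log2 difference of 1.52 (SE 0.13, adjusted p = 6.15e-08) in astrocytes and 1.18 (SE 0.14, adjusted p = 3.54e-06) in non-astrocytes. Astrocytes were called higher than non-astrocytes by 0.33 (SE 0.13, adjusted p = 0.0354), but the libraries overlapped.

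Maf, a leucine zipper factor that promotes somatostatin fate and is also known in macrophages, had 241, 145 and 210.5 in upper and 374, 285 and 229 in deep layer astrocytes (chr8:115682942-115707794, minus strand). It had 6104 and 8149 in upper and 7849 and 7025 in deep layer non-astrocytes, and 804 and 1039.7 in upper and 769.5 and 855 in deep layer bulk tissue. The 3 fractions were fully apart, with non-astrocytes highest and astrocytes lowest. The log2 difference from bulk tissue was -1.85 (SE 0.17, adjusted p = 1.31e-07) in astrocytes and 3.07 (SE 0.19, adjusted p = 1.85e-09) in non-astrocytes. Maf shares 440 exonic bases with Gm15655.

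Nr2f2 encodes COUP-TFII, a nuclear receptor of the caudal lineage that is also known in venous endothelium (chr7:70351944-70366735, minus strand), and shares 643 exonic bases with B130024G19Rik. It had 19.1, 22.9 and 38.6 in upper and 21.2, 17.0 and 24.3 in deep layer astrocytes, 1419 and 1527 in upper and 1195 and 1184 in deep layer non-astrocytes, and 122 and 187 in upper and 201 and 247 in deep layer bulk tissue. The 3 fractions did not overlap. The log2 difference from bulk tissue was -2.94 (SE 0.21, adjusted p = 7.91e-09) in astrocytes and 2.84 (SE 0.23, adjusted p = 4.96e-08) in non-astrocytes.

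Prox1, the homeobox factor of the caudal lineage, which is also known in lymphatic endothelium, moved in the same directions by less (chr1:190118035-190170714, minus strand). It had 65.9, 63.2 and 58.4 in upper and 119, 111 and 159.7 in deep layer astrocytes, 660.3 and 770.1 in upper and 876 and 733 in deep layer non-astrocytes, and 385 and 356 in upper and 405 and 418 in deep layer bulk tissue. The log2 difference from bulk tissue was -2.11 (SE 0.15, adjusted p = 4.65e-09) in astrocytes and 0.95 (SE 0.16, adjusted p = 9.86e-05) in non-astrocytes. Prox1 shares 133 exonic bases with Prox1os.

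Beside these 4 genes, marker lists of other cell types rose in non-astrocytes. All 12 microglial, 10 endothelial, 10 mural and 8 fibroblast markers tested were called higher there than in bulk tissue, as were 9 of 10 markers of oligodendrocyte precursors. The summed microglial level was 161700.0 to 236900.0 in the 4 non-astrocyte libraries and 8001 to 9501 in the 4 bulk libraries, and the summed endothelial level was 37550.0 to 53580.0 in non-astrocytes and 4815 to 6101 in bulk tissue. The summed precursor level was 3994 to 5944 in astrocytes, where Sox6 was higher too, 31110.0 to 69650.0 in non-astrocytes and 6578 to 10740.0 in bulk tissue. Their part in the 4 higher calls was not tested.

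All 7 peptide genes were called lower in both sorted fractions, and in each the 6 astrocyte and 4 non-astrocyte libraries lay below all 4 bulk libraries, a pattern that 29.9% of all genes tested showed in astrocytes and 29.3% in non-astrocytes. The median log2 difference from bulk tissue was -7.19 in astrocytes, or -8.08 with the genes at 0 set at their bound, and -5.29 in non-astrocytes. Cort and Crh passed the filter on low values through bulk libraries alone, so a lower value in sorted cells was built into their selection. Cck, cholecystokinin, is made by one class of basket cells and also by many excitatory neurons (chr9:121489824-121495694, minus strand). It had 9.55, 2.18 and 16.5 in upper and 16.5, 0 and 10.6 in deep layer astrocytes, 221 and 197 in upper and 182 and 189 in deep layer non-astrocytes, and 7028 and 8781 in upper and 7089 and 8282 in deep layer bulk tissue. The log2 difference from bulk tissue was -10.11 (SE 0.66, adjusted p = 9.34e-09) in astrocytes, the lowest fitted value of the 24 genes that were not at 0 throughout, and -5.29 (SE 0.72, adjusted p = 2.33e-05) in non-astrocytes. Non-astrocytes were above all astrocyte libraries, so that astrocytes were called lower than non-astrocytes by -4.82 (SE 0.66, adjusted p = 1.9e-05).

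Sst, somatostatin, marks Martinotti and related cells that inhibit dendrites (chr16:23889573-23890958, minus strand). Its count was 4.77, 6.54 and 1.1 in upper and 3.54, 24.1 and 6.34 in deep layer astrocytes, 5.37 and 13.5 in upper and 23.5 and 13.6 in deep layer non-astrocytes, and 1726 and 2862 in upper and 2528 and 4892 in deep layer bulk tissue. Sst differed from bulk tissue by -8.75 (SE 0.48, adjusted p = 3.63e-10) in astrocytes and by -7.70 (SE 0.53, adjusted p = 7.47e-09) in non-astrocytes, the lowest value of the 30 genes in non-astrocytes. Its level was 0.258% of that of bulk tissue in astrocytes and 0.466% in non-astrocytes.

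Npy, neuropeptide Y, is made by neurogliaform cells and part of the somatostatin cells (chr6:49822710-49829507, plus strand). It had 0, 8.72 and 4.41 in upper and 2.36, 0 and 1.06 in deep layer astrocytes, 17.7 and 2.69 in upper and 8.09 and 10.003 in deep layer non-astrocytes, and 635 and 976 in upper and 575 and 1134 in deep layer bulk tissue. Its log2 difference from bulk tissue was -8.22 (SE 0.61, adjusted p = 1.07e-08) in astrocytes and -6.45 (SE 0.67, adjusted p = 6.65e-07) in non-astrocytes. Vip, vasoactive intestinal peptide, marks cells that inhibit other interneurons (chr10:5639218-5647617, plus strand). It had 9.55, 22.9 and 0 in upper and 0, 0 and 2.11 in deep layer astrocytes, 23.8 and 10.8 in upper and 1.62 and 0 in deep layer non-astrocytes, and 382 and 529.9 in upper and 106 and 155 in deep layer bulk tissue. Its log2 difference from bulk tissue was -6.31 (SE 0.71, adjusted p = 1.41e-06) in astrocytes and -5.52 (SE 0.78, adjusted p = 1.86e-05) in non-astrocytes.

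The 3 lower peptide genes went the same way. Tac1, the precursor of substance P, was at 0 in all 6 astrocyte libraries, at 2.43 to 11.8 in non-astrocytes and at 94.2 to 201 in bulk tissue, at least 271-fold lower in astrocytes than in bulk tissue. Crh, corticotropin-releasing hormone, was at 0 in all 6 astrocyte libraries, at 0 to 6.14 in non-astrocytes and at 22.1 to 33.1 in bulk tissue, at least 48.9-fold lower in astrocytes. Cort, cortistatin, a relative of somatostatin, ran over 0 to 2.86 in astrocytes, 2.73 to 13.1 in non-astrocytes and 42.1 to 75.8 in bulk tissue. Between the sorted fractions, Cck, Tac1, Cort and Npy were called lower in astrocytes than in non-astrocytes, and Sst, Vip and Crh were not. The Npy call was lost without upper layer non-astrocytes replicate 1 (adjusted p = 0.12) or deep layer non-astrocytes replicate 2 (0.0544). Sst was called without deep layer astrocytes replicate 2 (adjusted p = 0.00633), upper layer astrocytes replicate 2 (0.04) or upper layer non-astrocytes replicate 1 (0.0433), and Crh without upper layer non-astrocytes replicate 2 (0.00701).

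**Figure D2:**
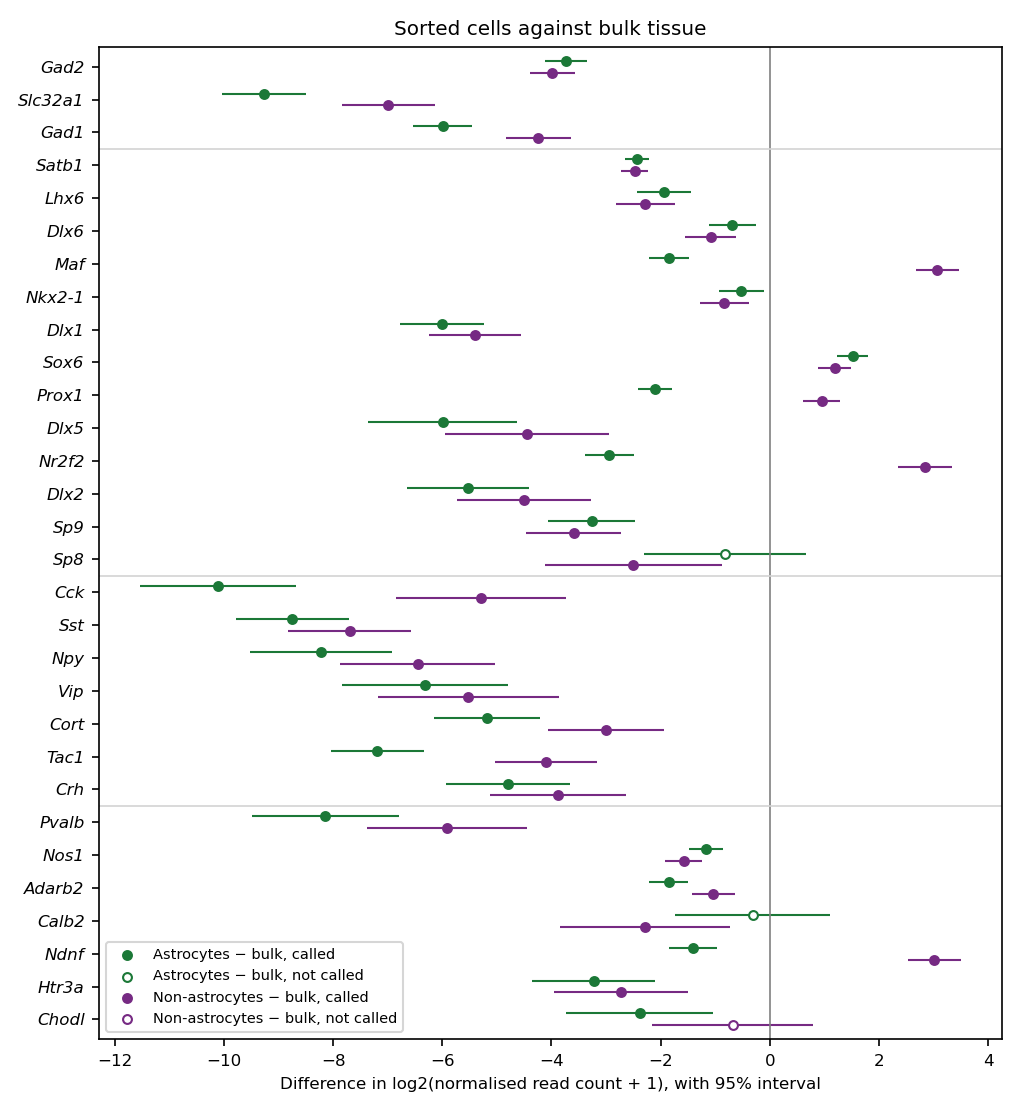
Difference from bulk tissue in log2(normalised read count + 1), with 95% intervals, for astrocytes (green, upper mark of each pair) and non-astrocytes (purple, lower mark), with filled points for genes called at an adjusted p below 0.05 in limma. All 7 peptides lie left of 0 in both fractions, while Sox6, Maf, Prox1, Nr2f2 and Ndnf lie right of 0 in non-astrocytes. Points of genes at 0 in all astrocyte libraries are fitted values that depend on the added 1.

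The 7 other subtype markers ranged in sorted cells from far below their bulk level to near it or above it. Pvalb, parvalbumin, the calcium-binding protein of fast-spiking basket cells (chr15:78191114-78206400, minus strand), had 0, 2.18 and 0 in upper and 1.18, 1.42 and 1.06 in deep layer astrocytes, 0.768 and 30.5 in upper and 5.66 and 12.7 in deep layer non-astrocytes, and 535 and 548 in upper and 372 and 618 in deep layer bulk tissue. Sorted and bulk libraries did not overlap, and its log2 difference from bulk tissue was -8.14 (SE 0.63, adjusted p = 1.75e-08) in astrocytes and -5.92 (SE 0.69, adjusted p = 2.43e-06) in non-astrocytes. The 4 non-astrocyte libraries spread widely.

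Nos1, neuronal nitric oxide synthase (chr5:117781032-117958840, plus strand), had 266, 265 and 267 in upper and 306, 321 and 282 in deep layer astrocytes, 269 and 190.3 in upper and 226 and 178 in deep layer non-astrocytes, and 457 and 585 in upper and 724 and 856 in deep layer bulk tissue. Sorted libraries were below all bulk libraries, by a log2 difference of -1.17 (SE 0.15, adjusted p = 4.03e-06) in astrocytes and -1.58 (SE 0.16, adjusted p = 5.16e-07) in non-astrocytes. It shares 268 exonic bases with Gm26995. Adarb2, an RNA-binding protein of the deaminase family that marks the caudal lineage (chr13:8202866-8768747, plus strand), had 171, 148 and 134 in upper and 177, 259.6 and 188 in deep layer astrocytes, 405 and 249.5 in upper and 318 and 292 in deep layer non-astrocytes, and 739 and 879 in upper and 488 and 526 in deep layer bulk tissue. Its log2 difference from bulk tissue was -1.86 (SE 0.17, adjusted p = 1.1e-07) in astrocytes and -1.03 (SE 0.18, adjusted p = 0.000166) in non-astrocytes. Nos1 stood at 43.4% of its bulk level in astrocytes and 32.9% in non-astrocytes, and Adarb2 at 27.3% in astrocytes and 48.1% in non-astrocytes.

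Ndnf, a secreted factor that marks neurogliaform cells of layer 1, was called higher in non-astrocytes (chr6:65671590-65712326, plus strand). It had 36.3, 20.7 and 48.5 in upper and 50.7, 53.9 and 67.7 in deep layer astrocytes, 939.7 and 913 in upper and 954 and 1004 in deep layer non-astrocytes, and 114 and 105 in upper and 134 and 117 in deep layer bulk tissue. The 3 fractions did not overlap, and the log2 difference from bulk tissue was -1.41 (SE 0.21, adjusted p = 2.58e-05) in astrocytes and 3.01 (SE 0.23, adjusted p = 2.25e-08) in non-astrocytes. The rise in summed microglial, endothelial and precursor markers given above stands beside this one too, and the summed mural level was 228600.0 to 301100.0 in non-astrocytes and 8976 to 11360.0 in bulk tissue. Its part was not tested.

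Calb2, the calcium-binding protein calretinin, was low, at 48.7, 24.0 and 43.0 in upper and 28.3, 7.09 and 24.3 in deep layer astrocytes, 13.8 and 5.39 in upper and 0 and 20.0 in deep layer non-astrocytes, and 48.8 and 33.1 in upper and 27.0 and 23.1 in deep layer bulk tissue (chr8:110137502-110168210, minus strand). Astrocytes and bulk tissue overlapped, with a difference of -0.32 (95% interval -1.74 to 1.11, adjusted p = 0.694). Non-astrocytes were called lower than bulk tissue by -2.29 (SE 0.73, adjusted p = 0.0131), a call lost without deep layer non-astrocytes replicate 1 (adjusted p = 0.0557) or upper layer non-astrocytes replicate 2 (0.0546). Htr3a, a serotonin-gated channel subunit, was at 0 in all 6 astrocyte libraries, at 0 to 3.07 in non-astrocytes and at 1.17 to 27.0 in bulk tissue. Against the bulk mean over both layers it was at least 23.4-fold lower in astrocytes. Bulk tissue averaged 22.7 in upper and 3.36 in deep layers, so this bound does not hold for deep layers alone. DESeq2 did not call Htr3a lower than in bulk tissue in astrocytes (adjusted p = 0.0633) or in non-astrocytes (0.205). Chodl, which marks somatostatin cells with long-range axons, had 0 to 1.91 in astrocytes, 0 to 16.9 in non-astrocytes and 0.922 to 12.9 in bulk tissue, and its difference between non-astrocytes and bulk tissue was -0.68 (95% interval -2.15 to 0.79, adjusted p = 0.411).

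Set side by side per kb of exon, bulk tissue levels were led by 3 peptide genes. Cck averaged 5973 ± 670.0 and Sst 4164 ± 1870.0 normalised reads per kb (SD, n = 4 here and below), and their libraries overlapped. Npy followed at 1466 ± 475. Gad2 averaged 506 ± 87.6, Pvalb 498 ± 99.8 and Satb1 366 ± 13.3, with neighbours overlapping in that order. Slc32a1 at 226 ± 56.2 and Gad1 at 195 ± 41.0 overlapped each other, and Lhx6 came next at 112 ± 16.4. Vip averaged 86.2 ± 58.3, and Chodl was the lowest at 1.25 ± 0.949.

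The layer comparisons asked whether interneuron genes differed between upper and deep layers within each fraction, and none of the 30 was called in bulk tissue, non-astrocytes or astrocytes. Few genes were called at all, 0.456% of those tested in bulk tissue, 0.00443% in non-astrocytes and 0.0797% in astrocytes. At an unadjusted p below 0.05, limma counted 5 of the 30 genes in astrocytes, 4 in non-astrocytes and 4 in bulk tissue, where 10.3%, 3.86% and 7.26% of all genes passed in the same order of fractions. The edgeR test called 0 of the 30 in each fraction, and DESeq2 called Prox1 in astrocytes and 0 in the other fractions. Over all genes tested, DESeq2 called 142 between layers of astrocytes, where edgeR called 17 and limma 18. In bulk tissue, 6 genes had both upper layer libraries above both deep layer libraries (Dlx1, Sp8, Vip, Calb2, Htr3a, Adarb2) and 9 had both below (Sox6, Satb1, Prox1, Sp9, Nr2f2, Tac1, Cort, Nos1, Ndnf). Over all genes tested these patterns took 22.4% and 21.3%, so that 2 libraries against 2 separate often. Among bulk libraries, Sp8 and Htr3a passed the filter on low values through the upper layer ones alone, so their direction was built in. In non-astrocytes, 7 genes had both upper layer libraries above both deep layer libraries and 2 had both below, where all genes gave 11.8% and 13.7%. In the same libraries the summed level of the 15 pan-neuronal markers was 15490.0 to 15830.0 in upper and 11110.0 to 12970.0 in deep layer non-astrocytes, and that of the 8 excitatory neuron markers was 5579 to 6471 in upper and 2004 to 3233 in deep layers. Their part in the upper layer values of these 7 genes, Vip among them, and of the further marker Reln was not tested.

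The 3 largest layer differences in bulk tissue were those of Htr3a, Sp8 and Vip, all with the higher values in upper layers. Htr3a (chr9:48899213-48911099, minus strand) had 18.4 and 27.0 in upper and 1.17 and 5.54 in deep layer bulk tissue, a log2 difference of 2.63 (SE 0.82, adjusted p = 0.26). It was called only with a pseudocount of 5 (adjusted p = 0.0294) among the settings tried. Sp8, at most 23.1 in any library, differed by 2.16 (SE 1.08, adjusted p = 0.747). Vip differed by 1.80 (SE 1.10, adjusted p = 0.914) and Adarb2 by 0.67 (SE 0.26, adjusted p = 0.501), and both were called when the fit held the 4 bulk libraries alone (adjusted p = 0.00102 and 0.0215). Vip was also higher in both upper than in both deep layer libraries of non-astrocytes, by 3.40 (SE 1.10, adjusted p = 0.666), from counts of at most 23.8.

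Grouped by lineage, no gene was called between layers of bulk tissue, and the lineages were not tested against each other. Of 11 genes of the medial lineage, 2 had a difference above 0, with a median log2 difference of -0.44. These 11 were Lhx6, Nkx2-1, Sox6, Maf, Satb1, Sst, Pvalb, Chodl, Nos1, Tac1 and Cort. Of 7 genes assigned to the caudal lineage or the preoptic area, 5 were above 0 (Sp8, Adarb2, Vip, Calb2, Htr3a), with a median of 0.67, but Prox1 (-0.15) and Nr2f2 (-0.56) were not. For Sp8 and Htr3a this direction was built into their selection, as given above. Over all 22575 genes tested, 11362 were above 0 and the median was 0.003. Sst differed by -0.66 (95% interval -2.25 to 0.93, adjusted p = 1) in bulk tissue with overlapping libraries, and Pvalb by 0.17 (95% interval -1.91 to 2.25, adjusted p = 1). Nos1 was lower in both upper layer bulk libraries, by -0.61 (SE 0.23, adjusted p = 0.449), and Sox6 by -0.44 (SE 0.20, adjusted p = 0.682). Gad1 differed by 0.20 (95% interval -0.64 to 1.05, adjusted p = 1) and Gad2 by 0.07 (95% interval -0.52 to 0.66, adjusted p = 1). The intervals of the peptides are too wide to set the layers equal. In the same bulk libraries, 4 of 10 oligodendrocyte markers were called lower in upper layers, with a summed level of 38830.0 to 42560.0 in upper and 129200.0 to 152200.0 in deep layers. The summed level of 8 excitatory neuron markers was 188100.0 to 225300.0 in upper and 118300.0 to 135100.0 in deep layers. The part of either in the values above was not tested.

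Bulk replicate 2 also stood apart from replicate 1. In both layers it had the higher value for 20 of the 30 genes (66.7%) and the lower for 3 (10%), against 30.8% and 23% of all genes tested. The same held for 9 of 15 pan-neuronal markers. Sst, for example, had its higher value in replicate 2 of each layer.

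**Figure D3:**
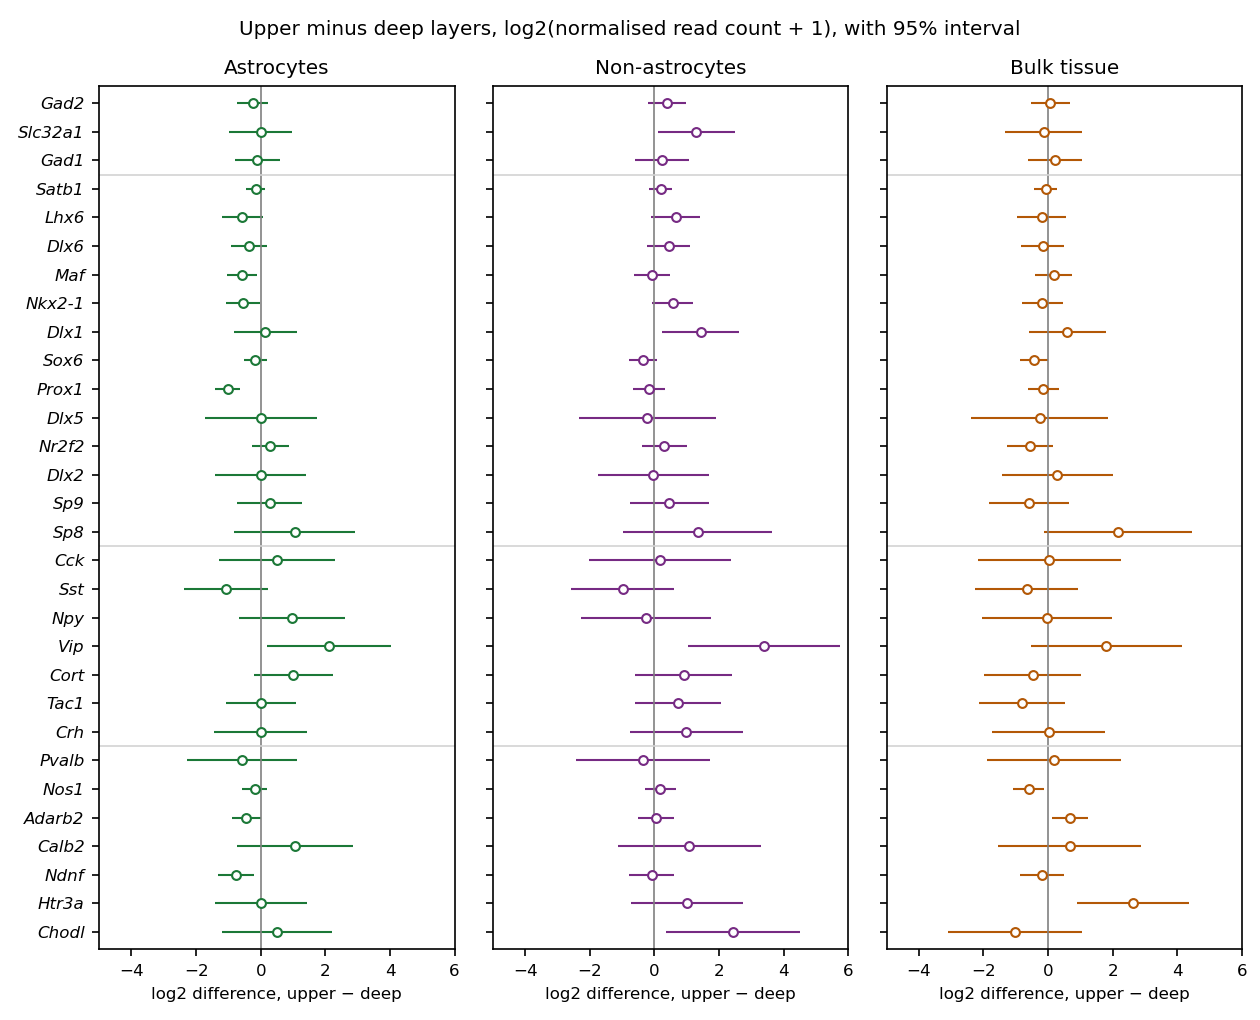
Upper minus deep layer difference in log2(normalised read count + 1), with 95% intervals, for the 30 genes in astrocytes (left), non-astrocytes (middle) and bulk tissue (right), with open points because none of the 30 was called. Prox1 in astrocytes and Htr3a in bulk tissue lie farthest from 0 relative to their intervals. Htr3a passed the filter on low values through the upper layer bulk libraries alone.

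In astrocytes, Prox1 gave the smallest p of the 30 genes between layers. Upper layer astrocytes had 65.9, 63.2 and 58.4 and deep layer astrocytes 119, 111 and 159.7, so that every upper library was below every deep library. The log2 difference was -1.03 (SE 0.18, adjusted p = 0.0614), just short of the threshold. With the replicate number as a block, which set same-numbered libraries together, Prox1 was called (adjusted p = 0.0324 with 1 block term over all fractions and 0.0345 with blocks within each fraction). It was also called with DESeq2 (0.000932) and without deep layer astrocytes replicate 2 (0.0284). With edgeR it was not (0.0555). Over all genes, DESeq2 called 142 between these layers and edgeR 17. Astrocyte libraries did not overlap for 8 of the 30 genes, all lower in upper layers (Gad2, Lhx6, Nkx2-1, Sox6, Prox1, Nos1, Ndnf, Adarb2), where 7.31% of all genes were lower and 8.7% higher without overlap. In the same libraries the summed level of 10 oligodendrocyte markers was 4279 to 5429 in upper and 5654 to 6889 in deep layers. Of these markers 1 was called lower in upper layers, and 1 had a difference above 0. The summed level of oligodendrocyte precursor markers overlapped, at 3994 to 5944 in upper and 4023 to 5582 in deep layers. The part of either in the Prox1 difference was not tested. In bulk tissue the Prox1 difference was -0.15 (95% interval -0.63 to 0.33, adjusted p = 1). The difference between the astrocyte and bulk layer differences, tested after the values were seen, was -0.87 for Prox1 (adjusted p = 0.381) and -1.12 for Adarb2 (adjusted p = 0.324), and no gene of the 30 was called for it, where 0.137% of all genes were.

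Layer differences of non-astrocytes also did not differ detectably from those of bulk tissue. None of the 30 genes was called by limma, edgeR or DESeq2, where limma called 0.0576% of all genes. At an unadjusted p below 0.05 limma counted 2, Nos1 and Chodl, where 4.01% of all genes passed. For Nos1 the difference of differences was 0.78 (95% interval 0.10 to 1.46, adjusted p = 1).

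**Figure D4:**
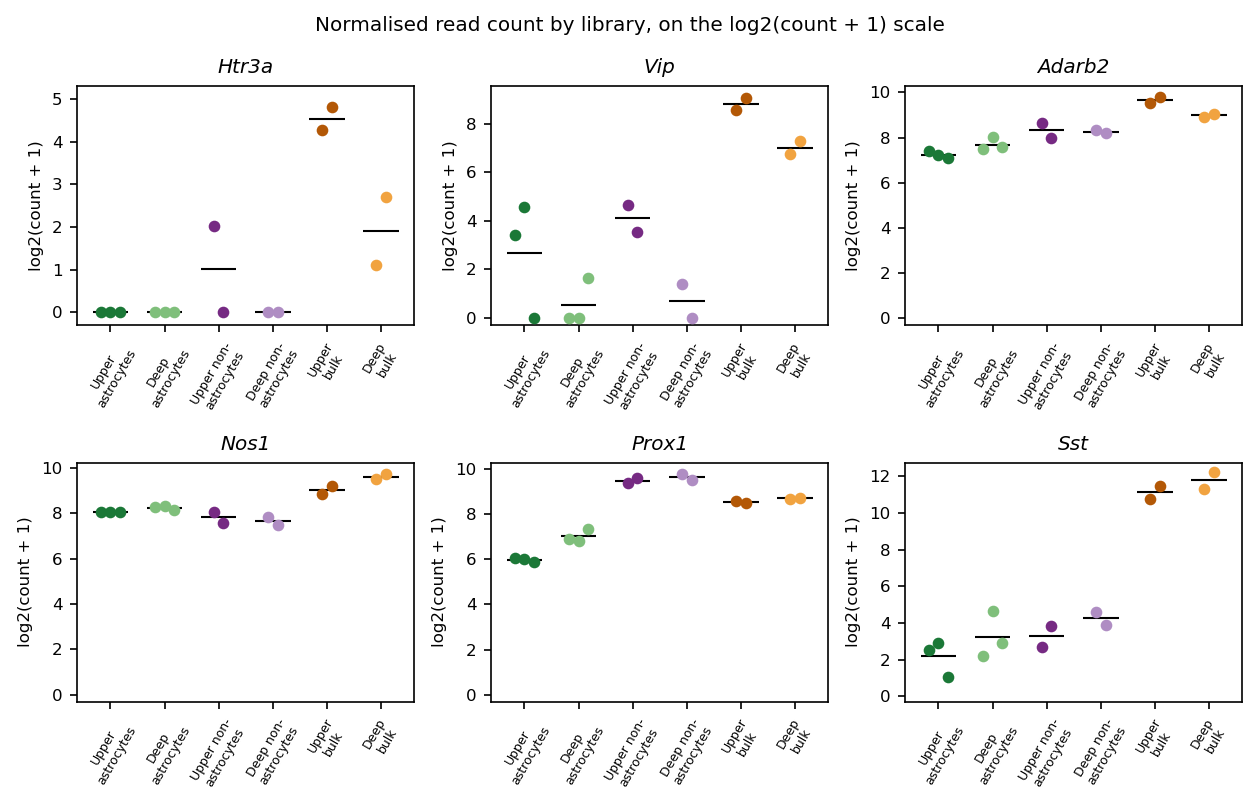
Level of 6 genes in each library, as log2(normalised read count + 1), by group, where each point is 1 library and the bar is the group mean. Htr3a, Vip and Adarb2 are higher in both upper than in both deep layer bulk libraries, Nos1 is lower, and Prox1 separates upper from deep layer astrocytes. For Sst the layers overlap in bulk tissue and in astrocytes, while in non-astrocytes both upper layer libraries are below both deep layer libraries.

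Other genes known from interneurons were taken from lists of the same kind. Of 24 further subtype markers tested, 20 were called lower in astrocytes, 2 higher and 2 not called, and 20 were called lower in non-astrocytes and 4 not called. Their median log2 difference from bulk tissue was -4.34 in astrocytes and -3.53 in non-astrocytes. Over all genes tested, 36.1% were called lower and 28.8% higher in astrocytes, and 31.1% lower and 30.5% higher in non-astrocytes. Reln, reelin, a secreted glycoprotein of layer 1 and of some interneurons, averaged 97.1 ± 9.14 in astrocytes (SD, n = 6) and 1444 ± 267 in bulk tissue (n = 4), a log2 difference of -3.87 (SE 0.14, adjusted p = 2.85e-12). Among all genes tested, Reln was also the single one that limma, as reported, called between layers in non-astrocytes. It stood at 265 ± 2.43 in upper and 62.6 ± 2.74 in deep layers (n = 2 each), a log2 difference of 2.06 (SE 0.22, adjusted p = 0.00248). In 11 other settings with all libraries kept, the count of genes called between these layers ran from 0 to 139. The Reln call therefore did not hold in every setting. Between the sorted fractions, 13 of the 24 were called lower in astrocytes than in non-astrocytes, 5 higher and 6 not called. Over all genes tested, 36.8% were called lower and 29.6% higher in that comparison. Cnr1, the cannabinoid receptor of Cck basket cells, averaged 4257 ± 1650.0 in astrocytes (n = 6) and 126 ± 19.7 in non-astrocytes (n = 4).

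Of 10 further transcription and migration genes tested, 6 were called lower in astrocytes and 4 not called, where 36.1% of all genes were called lower. In non-astrocytes 4 were called higher and 3 lower, where 30.5% of all genes were called higher and 31.1% lower. Ackr3, a chemokine receptor used in interneuron migration, averaged 2581 ± 525 in non-astrocytes and 179 ± 44.5 in bulk tissue. Genes that take up or break down GABA, a task that astrocytes share, went the other way. In astrocytes 4 of 5 were called higher than in bulk tissue and 1 lower, where 28.8% of all genes were called higher and 36.1% lower. Slc6a11, the GABA transporter GAT3, averaged 42750.0 ± 10200.0 in astrocytes and 5192 ± 387 in bulk tissue, a log2 difference of 3.01 (SE 0.18, adjusted p = 6.24e-10).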

How the data were processed

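The submitters' processing notes name the GRCm38 build and, as tools, HTSeq 0.6.1p1, TopHat2 2.0.11, DESeq2 and CASAVA. Per the labels' protocols, cDNA was made from total RNA with a NuGEN single primer amplification kit and sequenced in single-end reads. The deposited signal holds read counts per gene over a size factor: dividing by the smallest value of a library gave whole reads for 100% of values within 1e-06. Strand use in counting is not given in the sources used here, and so genes with shared exonic bases are uncertain. Titles set the groups, since the characteristics field names bulk tissue for upper layer astrocytes and non-astrocytes.

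The leading test was limma 3.58.1 in R 4.3.3 (trend, robust) on log2(value + 1), in 1 model of 6 group means with 8 residual degrees of freedom. It ran on the 22575 of 32830 genes with a value of at least 10 in at least 2 libraries, and p-values were adjusted by Benjamini-Hochberg over all of them. It was also run on simulated counts built from the means and size factors of these data, with the same dispersion for every gene. Changes were placed only in genes that were not low, so those counts do not cover genes with few reads. On the recovered reads, edgeR 4.0.16 called 167 genes and DESeq2 1.42.0 called 428 for the layers of bulk tissue, where limma called 103. The other alternatives were TMM scaling, scaling to library totals, pseudocounts of 0.5 and 5, other filters, a fit of the groups compared alone, the replicate number as a block, and each library left out. Deviations of same-numbered upper and deep layer astrocyte libraries from their group means correlated at 0.203, 0.149 and 0.171. Libraries with different numbers were not compared, so these values cannot show whether the numbers mark pairs. The leading test held no pairing, and the number entered only as a block in the alternative fits. Replicates correlated at 0.956 to 0.98 on the log2 scale, and no pair was a copy. Coordinates and exon lengths are from GENCODE M21 (GRCm38).

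The members and gene lists were chosen with earlier results of these data known. The value in every library is given for genes called higher in a sorted fraction than in bulk tissue and, in each group of genes, for the 4 with the highest bulk level per kb of exon (3 for GABA synthesis), and the range for the others. Genes outside the 30 are named by the smallest p in the comparison described, at most 4 a list, and 1 such gene is not reported here. Htr3a by layer was added after its values were seen. The 2 tests of astrocyte layer differences were also added then.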

Additional observations from a re-analysis of the deposited data

How the results depend on the processing

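Against bulk tissue, 24 of the 29 calls in non-astrocytes and 25 of the 28 in astrocytes held in every setting tried, as did 11 of the 18 calls between astrocytes and non-astrocytes, and no called gene changed sign. The calls lost in some settings were those of Calb2, Dlx5, Htr3a, Nkx2-1 and Sp8 in non-astrocytes, of Dlx6, Htr3a and Nkx2-1 in astrocytes, and of Calb2, Chodl, Dlx5, Nos1, Npy, Sox6 and Sp8 between the sorted fractions. The number of the 30 genes called ran from 27 to 29 in non-astrocytes, from 26 to 28 in astrocytes and from 14 to 18 between them. Between layers of bulk tissue it was 1 with a pseudocount of 5 and 2 with the groups compared alone, and with each library left out it was 0. Between layers of astrocytes it was 1 with DESeq2, 1 with the replicate block over all fractions, 1 with the replicate block within each fraction, and 0 to 1 with each library left out. The block changed other calls as well: between astrocytes and non-astrocytes it ended those of Calb2, Chodl, Dlx5 and Sp8 and added Dlx6 and Nkx2-1, and against bulk tissue it ended that of Nkx2-1 and added Sp8 in astrocytes. Same-numbered deviations correlated at 0.436 in non-astrocytes and 0.094 in bulk tissue, with 2 pairs each that give the same value by construction. In no fraction was it tested whether the numbers mark pairs. The cause of these shifts was not tested. Over all genes, the count between layers ran from 11 to 1093 in bulk tissue, 0 to 139 in non-astrocytes and 1 to 188 in astrocytes, and for the layer difference from 0 to 53, where 103, 1, 18 and 13 were reported. Scaling to library totals put the median of all genes at 0.32 for non-astrocytes against bulk tissue (-0.04 as reported), 0.08 for astrocytes against bulk tissue (-0.10) and -0.25 for astrocytes against non-astrocytes (-0.08). Genes with a few reads a library, such as Chodl, Htr3a, Sp8 and Crh, limit what these depths can show.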
